A study of Mus musculus with 12 samples.

Results

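The 8 transcripts described here encode enzymes of the pentose phosphate pathway and of cytosolic NADPH production: G6pdx, Pgls, Pgd, Rpia, Tkt, Taldo1, Me1 and Idh1. They were chosen by name, as 8 of the 24421 gene symbols in the count data, and all 8 passed the filter on low counts that 11638 genes passed. Poly(A) RNA was sequenced from B16F10, an established mouse melanoma cell line, in 4 groups of 3 replicates. The control received the solvent DMSO. The DAC group received 5-aza-2'-deoxycytidine, a DNA methyltransferase inhibitor, at 25 nM for 72 h with the medium renewed after 24 h. The SFN group was left untreated for 24 h and then received sulforaphane, an isothiocyanate from cruciferous plants, for 48 h. The DAC+SFN group received 25 nM DAC for 72 h, with 5 µM SFN added for the final 48 h. The labels give the dose of SFN alone as 5 nM while the study's methods give 5 µM for both groups, so by the labels the SFN dose differed between SFN and DAC+SFN. All groups came from 1 cell line, and the replicates were described as independent biological repeats.

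The pentose phosphate pathway branches from glycolysis at glucose-6-phosphate. Its oxidative branch oxidizes this sugar to ribulose-5-phosphate and reduces NADP+ to NADPH in the steps catalyzed by glucose-6-phosphate dehydrogenase and 6-phosphogluconate dehydrogenase. Its non-oxidative branch interconverts sugar phosphates, supplying ribose for nucleotides or returning carbon to glycolysis. Malic enzyme 1 and isocitrate dehydrogenase 1 make NADPH in the cytosol by other reactions. NADPH is spent on keeping glutathione and thioredoxin reduced and on making fatty acids and sterols. Sulforaphane is known to activate the transcription factor NRF2, which binds antioxidant response elements, and genes of this pathway are among the known targets of NRF2 in several cell types.

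The 5' ends of 4 of these genes are shown because they cover the transcripts that moved most with SFN (G6pdx, Taldo1, Idh1) and a transcript that holds the motif at its start but moved little (Me1). Each sequence runs 5' to 3' on the strand of the gene, from 100 bases before the RefSeq start to 20 bases from it (120 bases, GRCm38.p6), and capitals mark a match to the antioxidant response element core TGACNNNGC on either strand.
G6pdx, chrX:74428861-74428980, minus strand: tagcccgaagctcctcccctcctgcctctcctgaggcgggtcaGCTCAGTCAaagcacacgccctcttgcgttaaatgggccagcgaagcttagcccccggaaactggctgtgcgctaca
Me1, first start, chr9:86695895-86696014, minus strand: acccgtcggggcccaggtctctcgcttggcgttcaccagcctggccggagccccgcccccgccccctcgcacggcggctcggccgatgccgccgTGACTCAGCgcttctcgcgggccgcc
Taldo1, chr7:141392060-141392179, plus strand: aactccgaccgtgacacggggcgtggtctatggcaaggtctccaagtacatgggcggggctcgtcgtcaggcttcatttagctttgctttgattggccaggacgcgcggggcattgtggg
Idh1, first start, chr1:65186460-65186579, minus strand: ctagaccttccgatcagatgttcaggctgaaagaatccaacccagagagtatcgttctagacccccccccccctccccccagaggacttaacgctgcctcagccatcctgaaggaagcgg
Windows from 250 bases before to 50 bases after each RefSeq start were searched, 11 windows for the 8 genes. In G6pdx, which encodes glucose-6-phosphate dehydrogenase, the match TGACTGAGC lay on the opposite strand at positions -57 to -49 from the start. In Me1 the match TGACTCAGC lay across the start, from position -6 to 3, and overlapped the AP-1 site TGACTCA, which 5.2% of all 32851 windows held. The second RefSeq start of Pgd had a match, TGACATTGC at positions 4 to 12, that overlapped the annotated coding sequence. The other 8 windows, among them those of Taldo1 and Idh1 and the first start of Pgd, held neither motif. The antioxidant response element core was present in 12.4% of all windows, and these matches are descriptions of sequence only.

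The library totals ranged from 15880957 to 27291436 counts, and the 8 transcripts together took 0.126% to 0.188% of each. All 7 markers of B16F10 cells (Mitf, Sox10, Tyr, Tyrp1, Dct, Pmel, Mlana) passed the filter, with summed levels of 21399 to 30137 CPM (counts scaled to a common library size). None of the 7 was called between SFN and control, whereas Tyr was higher in DAC+SFN than in DAC (log2 fold change 0.16, adjusted p 0.0442), and Pmel (-0.36, adjusted p 0.0129) and Tyrp1 (-0.17, adjusted p 0.0478) were lower in DAC+SFN than in control. Markers of other cells were low: the leukocyte genes Ptprc and Cd3e had at most 2 counts in any library, the epithelial genes (Epcam, Krt5) summed to at most 2 and the endothelial genes (Pecam1, Cdh5) to at most 11. Cd68, a lysosomal glycoprotein used as a macrophage marker, was higher with SFN than in control (log2 fold change 1.11, adjusted p 0.000729). The summed level of the 3 leukocyte markers ranged over 2.36 to 4.77 CPM in control libraries and 3.93 to 5.67 CPM in those of DAC. It was 6.16 to 8.99 CPM in the SFN libraries and 8.30 to 11.1 CPM in the DAC+SFN libraries, nearly all of it Cd68. Of the fibroblast markers, Dcn had at most 1 count, Pdgfra was lower with SFN (-0.84, adjusted p 0.0240) at 26 to 65 counts, and Col1a1 separated the replicate numbers, with 245 to 356 CPM in the replicate 3 libraries, 61.5 to 90.3 in replicate 1 and 15.6 to 24.1 in replicate 2. The part of these markers in the results was not tested. In bulk RNA, fewer cells expressing a gene and less RNA per cell cannot be told apart.

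SFN was followed by higher levels of 3 of the 8 transcripts and a lower level of 1. Compared with control, G6pdx rose 1.79-fold, Taldo1 rose 1.57-fold, Pgd rose 1.30-fold and Idh1 fell to 0.593 of its control level. The other 4, Pgls, Rpia, Tkt and Me1, did not pass the test. Nearly the same picture was found where SFN was added to DAC (DAC+SFN compared with DAC). The same 4 were called in the same directions, and Me1 was called higher as well. This comparison shares no library with the first, but both came from 1 fit of all 12 libraries with the same replicate block. They were therefore not independent tests. DAC was not followed by a called change in any of the 8, either alone or on top of SFN. A gene was called at a Benjamini-Hochberg adjusted p under 0.05 over all 11638 genes in the edgeR quasi-likelihood test, with the replicate number as a block.

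These counts stand beside the following shares of all genes. In SFN compared with control, 13.9% of all genes were called, 8.27% higher and 5.65% lower, against 4 of the 8 members. In DAC+SFN compared with DAC, 16.1% were called, 9.55% higher and 6.6% lower, against 5 of the 8. No member exceeded a fold change of 2 in any comparison, a size that 1.28% of all genes passed together with the adjusted p in SFN compared with control and 0.928% in DAC+SFN compared with DAC. The median log2 fold change of the 8 was 0.16 with SFN and 0.14 with SFN on top of DAC, where the medians of all genes were 0.00399 and 0.000851.

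**Figure D1:**
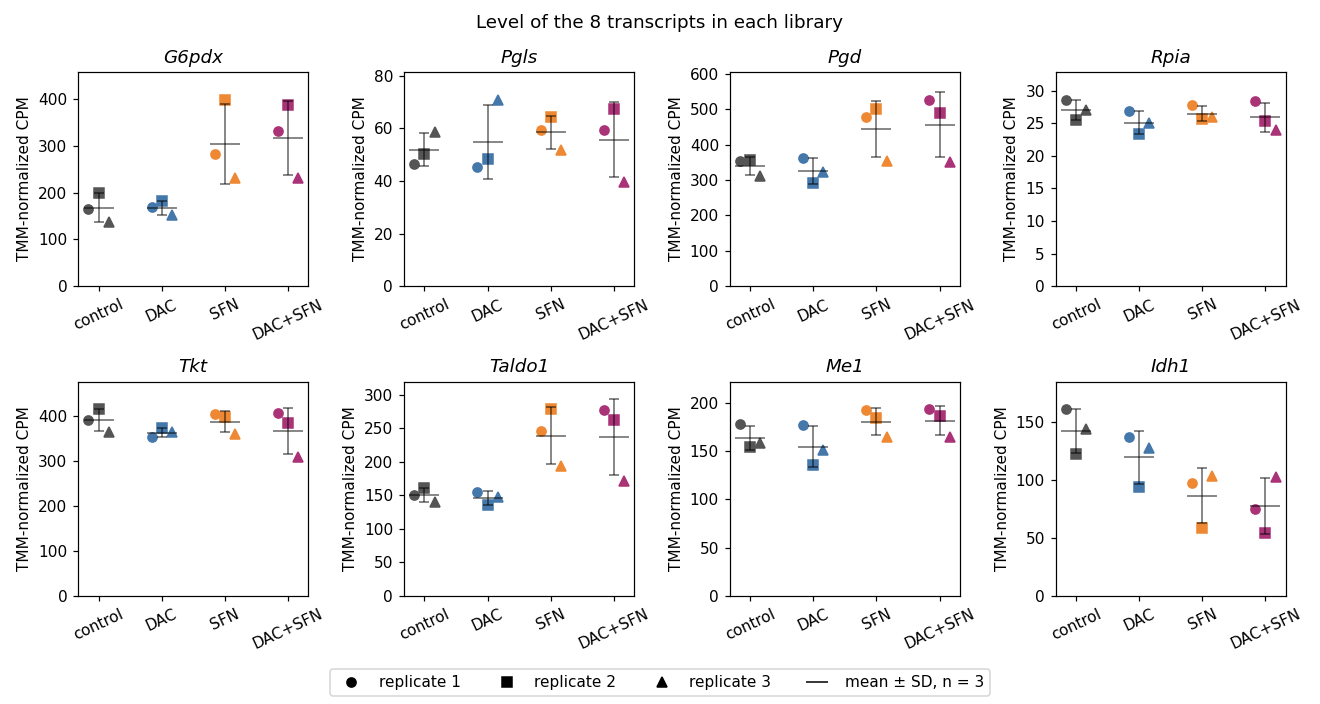
TMM-normalized CPM (vertical axes from 0) of each of the 8 transcripts in the 12 libraries, by group, with point shapes for the replicate number and bars for the mean ± SD (n = 3). All SFN and DAC+SFN libraries of G6pdx (231 to 398 CPM) and Taldo1 (171 to 278 CPM) lie above all control and DAC libraries, while those of Tkt and Rpia lie in 1 range.

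The oxidative branch begins with G6pdx (Entrez 14381, chrX:74409483-74429194, minus strand), the X-linked gene of glucose-6-phosphate dehydrogenase, which sets the entry of glucose into the pathway. In replicates 1, 2 and 3, its level was 165, 199.9 and 138 CPM in control and 169, 182 and 152 CPM with DAC. It was 283, 398 and 231 CPM with SFN, and 331, 387 and 232 CPM with DAC+SFN. Every library with SFN was above every library without it. The mean was 168 ± 30.9 CPM for control and 168 ± 15.2 CPM for DAC, against 304 ± 85.6 CPM for SFN and 317 ± 78.7 CPM for DAC+SFN (SD, n = 3). The log2 fold change was 0.84 (SE 0.0841, adjusted p 1.87e-05) for SFN against control and 0.89 (SE 0.0842, adjusted p 2.88e-05) for DAC+SFN against DAC, and each replicate rose in both. The annotated exons of G6pdx overlap those of Ikbkg, a subunit of the IκB kinase complex on the opposite strand, over 418 bases. The libraries were made with a stranded kit, but the strand setting of the counting is not given in the sources used here. Ikbkg itself had 824 to 1721 counts, and its log2 fold change was 0.18 (adjusted p 0.157) with SFN and 0.22 (adjusted p 0.0786) with SFN on top of DAC. It was called higher in DAC+SFN against control (0.28, adjusted p 0.0156).

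Pgd (Entrez 110208, chr4:149149991-149166771, minus strand) encodes 6-phosphogluconate dehydrogenase, which makes the second NADPH of the branch. Its level was 355, 356 and 311 CPM in control, 364, 291 and 322 CPM with DAC, 479, 501 and 355 CPM with SFN, and 527, 488 and 352 CPM with DAC+SFN. Replicates 1 and 2 with SFN stood apart from control, whereas replicate 3 with SFN lay within the control range, so the groups overlapped. The means were 341 ± 25.8, 325 ± 36.4, 445 ± 78.8 and 456 ± 91.9 CPM in the same order of groups. With SFN it was higher by 0.37 on the log2 scale (SE 0.0961, adjusted p 0.0179), and by 0.46 (SE 0.0963, adjusted p 0.00535) on top of DAC. The first of these calls depended on single libraries: the adjusted p was 0.108 without control replicate 1, 0.0716 without control replicate 2, 0.0570 without SFN replicate 1 and 0.133 without SFN replicate 2.

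Pgls (Entrez 66171, chr8:71592176-71601092, plus strand) encodes 6-phosphogluconolactonase, which hydrolyzes the lactone between the dehydrogenases. Its level was 46.4, 50.4 and 58.8 CPM in control and 45.3, 48.3 and 70.9 CPM with DAC. With SFN it was 59.4, 64.5 and 52.0 CPM, and with DAC+SFN 59.6, 67.6 and 39.8 CPM. Replicates 1 and 2 were higher with SFN than without it, and replicate 3 was lower, so the groups overlapped. The log2 fold change was 0.18 (95% interval -0.20 to 0.56, adjusted p 0.547) with SFN and 0.01 (-0.37 to 0.40, adjusted p 0.973) with SFN on top of DAC. Within replicates the differences were 0.36, 0.36 and -0.18 for SFN against control, and 0.39, 0.48 and -0.83 for DAC+SFN against DAC. With all 4 libraries of replicate 3 left out, a choice made after seeing the data, they were 0.35 (adjusted p 0.00506) and 0.43 (adjusted p 0.00127). Exons of Pgls overlap those of Fam129c on the same strand over 776 bases, and Fam129c had 114 to 259 counts against 758 to 1894 for Pgls.

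In the non-oxidative branch 1 of 3 transcripts changed. Taldo1 (Entrez 21351, chr7:141392199-141402968, plus strand) encodes transaldolase, which transfers 3-carbon units between sugar phosphates. Its level was 151, 161 and 139.9 CPM in control, 155, 135 and 148 CPM with DAC, 246, 278 and 193 CPM with SFN, and 277, 263 and 171 CPM with DAC+SFN. No library without SFN reached the lowest library with it. The means were 151 ± 10.7, 146 ± 10.3, 239 ± 42.7 and 237 ± 57.2 CPM. On the log2 scale it rose by 0.65 (SE 0.111, adjusted p 0.00136) with SFN and by 0.67 (SE 0.112, adjusted p 0.00136) with SFN on top of DAC.

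Tkt (Entrez 21881, chr14:30548359-30574720, plus strand) encodes transketolase, the partner of transaldolase, which transfers 2-carbon units. It had 391, 414 and 365 CPM in control, 353, 372 and 363 CPM with DAC, 405, 397 and 360.2 CPM with SFN, and 406, 384 and 309 CPM with DAC+SFN. The 4 groups lay in 1 range, with the lowest value in replicate 3 of DAC+SFN. The log2 fold change was -0.01 (95% interval -0.15 to 0.13, adjusted p 0.940) with SFN and 0.00566 (-0.14 to 0.15, adjusted p 0.971) with SFN on top of DAC. The interval for SFN corresponds to a fold of 0.899 to 1.10.

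Rpia (Entrez 19895, chr6:70765720-70792232, minus strand) encodes ribose-5-phosphate isomerase, which makes the ribose-5-phosphate used for nucleotides. Its level was the lowest of the 8, also per length of exon, with 28.6, 25.5 and 27.0 CPM in control, 26.9, 23.3 and 25.0 CPM with DAC, 27.7, 25.6 and 26.0 CPM with SFN, and 28.4, 25.4 and 24.0 CPM with DAC+SFN. The groups overlapped throughout. The log2 fold change was -0.03 (95% interval -0.18 to 0.13, adjusted p 0.840) with SFN and 0.05 (-0.11 to 0.20, adjusted p 0.721) with SFN on top of DAC.

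The 2 NADPH-producing enzymes outside the pathway differed in direction. Idh1 (Entrez 15926, chr1:65158616-65186500, minus strand) encodes the NADP+-dependent isocitrate dehydrogenase of cytosol and peroxisomes. Its level was 161, 122 and 144 CPM in control and 137, 93.4 and 127 CPM with DAC. With SFN it was 97.2, 58.9 and 103 CPM, and with DAC+SFN 75.0, 54.5 and 103 CPM. All SFN libraries were below all controls, whereas DAC+SFN and DAC overlapped, replicate 3 of DAC+SFN being above replicate 2 of DAC. The means were 142 ± 19.2, 119 ± 22.9, 86.5 ± 24.1 and 77.4 ± 24.2 CPM. Its log2 fold change was -0.75 (SE 0.107, adjusted p 0.000346) with SFN and -0.64 (SE 0.108, adjusted p 0.00144) with SFN on top of DAC, and the level was lower in each replicate pair of both.

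Me1 (Entrez 17436, chr9:86581371-86695953, minus strand) encodes cytosolic malic enzyme, which makes NADPH as it converts malate to pyruvate. Its level was 178, 154 and 159 CPM in control, 177, 135 and 151 CPM with DAC, 192, 184 and 165 CPM with SFN, and 193, 187 and 165 CPM with DAC+SFN. It was higher with SFN in every replicate pair, but the groups overlapped. The log2 fold change was 0.14 (95% interval -0.00433 to 0.29, adjusted p 0.186) with SFN and 0.23 (0.0875 to 0.38, adjusted p 0.0315) with SFN on top of DAC. The second call was lost without DAC replicate 2 (adjusted p 0.223), SFN replicate 1 (0.0539), DAC+SFN replicate 1 (0.0677) or DAC+SFN replicate 2 (0.139). It was also lost in a fit of the DAC and DAC+SFN libraries alone (0.160). The difference between both effects of SFN on Me1 did not pass the test of interaction (0.09, adjusted p 0.973).

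**Figure D2:**
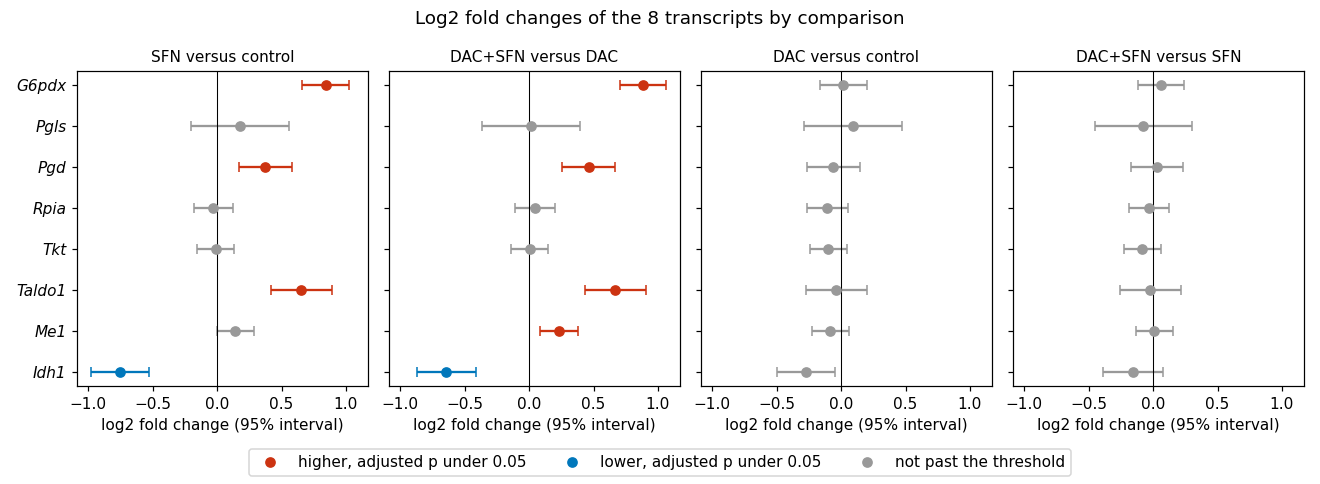
Log2 fold changes (horizontal axis, points with 95% intervals) of the 8 transcripts in 4 comparisons from the edgeR fit of all 12 libraries, red for higher and blue for lower at an adjusted p under 0.05 and grey for the rest. G6pdx, Pgd, Taldo1 and Idh1 are coloured in both comparisons of SFN, Me1 in DAC+SFN versus DAC (0.23), and no transcript in DAC versus control or DAC+SFN versus SFN.

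The calls in these comparisons rested on the replicate block. In a fit without it, none of the 8 was called with SFN, where 23 genes in all remained past the threshold, and none with SFN on top of DAC, where 20 did. The adjusted p for SFN against control was then 0.117 for G6pdx, 0.118 for Taldo1, 0.208 for Idh1 and 0.282 for Pgd, while their log2 fold changes were 0.86, 0.67, -0.72 and 0.38. For SFN on top of DAC the adjusted p was 0.0881 for G6pdx, 0.0902 for Taldo1, 0.161 for Pgd, 0.225 for Idh1 and 0.305 for Me1.

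Replicates differed in the size of the response. For G6pdx, Pgd, Taldo1 and Idh1, replicate 3 had the smallest difference of the 3 in both comparisons. The log2 differences of G6pdx in replicates 1, 2 and 3 were 0.78, 0.99 and 0.74 for SFN against control, and 0.97, 1.09 and 0.61 for DAC+SFN against DAC. Those of Taldo1 were 0.70, 0.79 and 0.47, and 0.83, 0.96 and 0.21. For Pgd they were 0.43, 0.49 and 0.19, and 0.54, 0.75 and 0.13. The level of Idh1 differed by -0.72, -1.05 and -0.48, and by -0.87, -0.78 and -0.31. Over all genes called in each comparison, the median difference in the direction of the call was 0.38, 0.46 and 0.32 in replicates 1, 2 and 3 with SFN (1619 genes), and 0.44, 0.35 and 0.28 with SFN on top of DAC (1879 genes). The replicate 3 libraries were also those with the most Col1a1, and whether these values are related was not tested.

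**Figure D3:**
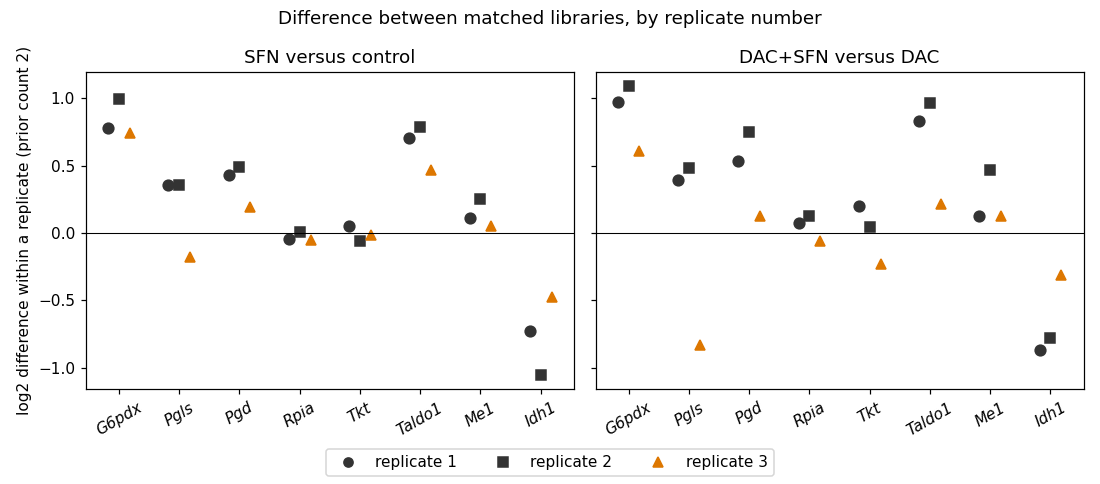
Log2 difference in level (vertical axis) between the libraries with and without SFN of the same replicate number, for each of the 8 transcripts, with replicate 3 in orange. Replicate 3 lies nearest to 0 for G6pdx, Pgd, Taldo1 and Idh1 on both sides, and below 0 for Pgls (-0.18 and -0.83) where replicates 1 and 2 lie above it.

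DAC compared with control addressed the demethylating drug alone. None of the 8 was called, where 0.18% of all genes (21 genes) were. Idh1 had the largest estimate, -0.27 (95% interval -0.50 to -0.0440, unadjusted p 0.0224, adjusted p 0.399), and was lower with DAC in 3 of 3 replicate pairs. It was the only one of the 8 with an unadjusted p under 0.05, as were 1170 of all genes. In a fit of the control and DAC libraries alone Idh1 was called (-0.26, adjusted p 0.00242), as were 662 genes in all. The other estimates lay between -0.11 for Rpia and 0.09 for Pgls, with adjusted p of 0.656 to 0.964.

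Adding DAC to SFN (DAC+SFN compared with SFN) gave no call among the 8, where 1.61% of all genes were called, and none had an unadjusted p under 0.05, which 2072 genes in all had. The estimates ran from -0.16 for Idh1 (95% interval -0.39 to 0.0733, adjusted p 0.482) to 0.06 for G6pdx (-0.11 to 0.24, adjusted p 0.747). For Idh1 the difference was -0.37, -0.11 and -0.00814 in replicates 1, 2 and 3. Without DAC+SFN replicate 3 it was -0.33 (adjusted p 0.0470).

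The combination against control gave values near those of SFN alone, with which it shares the control libraries. G6pdx was higher by 0.90 on the log2 scale (adjusted p 4.43e-06), Taldo1 by 0.63 (0.000721) and Pgd by 0.40 (0.00549). Idh1 was lower (-0.91, adjusted p 3.40e-05), at 0.532 of its control level. These were 4 of the 8, where 31.6% of all genes were called, 17% higher and 14.7% lower, and 2.66% passed a fold change of 2 as well. Without the replicate block, 3 of the 8 were called, Pgd being lost (adjusted p 0.105). Pgls (0.10, adjusted p 0.691) was not called, and was 0.36 (adjusted p 0.0398) without DAC+SFN replicate 3.

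Whether DAC altered the effect of SFN was tested by the interaction. None of the 8 was called (adjusted p 0.973 to 1.000), and neither was any gene (0%), with 683 genes and none of the 8 at an unadjusted p under 0.05. The estimates of the interaction ran from -0.16 (95% interval -0.70 to 0.37) for Pgls to 0.11 (-0.21 to 0.44) for Idh1. For G6pdx it was 0.04 (-0.21 to 0.30), so differences of this size between both effects of SFN could not be resolved with 3 replicates. The DESeq2 test also called 0 of the 8 in the interaction, in DAC against control and in DAC+SFN against SFN. Over all genes it called 0, 83 and 410 in the same order.

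The order of the transcripts by level was read from CPM per kb of annotated exon. In control, Taldo1 was first with 69.4 ± 4.92, followed by G6pdx with 54.5 ± 10.0, Tkt with 53.0 ± 3.36, Pgd with 52.9 ± 3.99, Idh1 with 51.3 ± 6.92 and Me1 with 42.6 ± 3.28 (SD, n = 3). Each of these overlapped its neighbour in the order over the 3 replicates. Pgls, with 13.8 ± 1.68, lay below Me1 without overlap, and Rpia, with 5.04 ± 0.289, below Pgls.

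With SFN the order had Taldo1 at 110.1 ± 19.7 and G6pdx at 98.7 ± 27.8 CPM per kb, which overlapped, then Pgd at 69.0 ± 12.2, above Tkt at 52.6 ± 3.22 without overlap. Idh1, at 31.2 ± 8.69, was now below Me1, at 46.9 ± 3.68, without overlap. Pgls and Rpia remained last, at 15.5 ± 1.67 and 4.94 ± 0.209. The order depended on the length used: with the longest transcript in place of all exons, Tkt was first in control (121 CPM per kb) and Taldo1 second (111). With SFN at that length, Pgd (97.4 to 138) overlapped Tkt (112 to 126), and G6pdx (mean 115) was below Tkt (mean 120). Per kb of all exons, the lowest SFN library of Pgd (55.03) was only just above the highest of Tkt (55.01). The annotation used for counting is not given in the sources used here, so these are approximate levels.

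Ratios within a library showed how unequal the changes were. G6pdx per kb was 1.02 ± 0.124 times Tkt for control and 1.10 ± 0.0921 times for DAC, against 1.87 ± 0.465 times for SFN and 2.05 ± 0.323 times for DAC+SFN (SD, n = 3). Taldo1 was 1.31 ± 0.00991 times Tkt in control and 2.08 ± 0.278 with SFN. The ratio of G6pdx to Idh1 was 1.09 ± 0.333 in control and 3.57 ± 2.20 with SFN, ranging from 2.01 to 6.08 over the SFN replicates. With the longest transcript as the length, G6pdx was 0.520 ± 0.0633 times Tkt in control and 0.950 ± 0.237 times with SFN, and Taldo1 was 0.914 ± 0.00692 and 1.46 ± 0.195 times Tkt, so the ratios themselves depend on the length used while their change between groups does not.

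**Figure D4:**
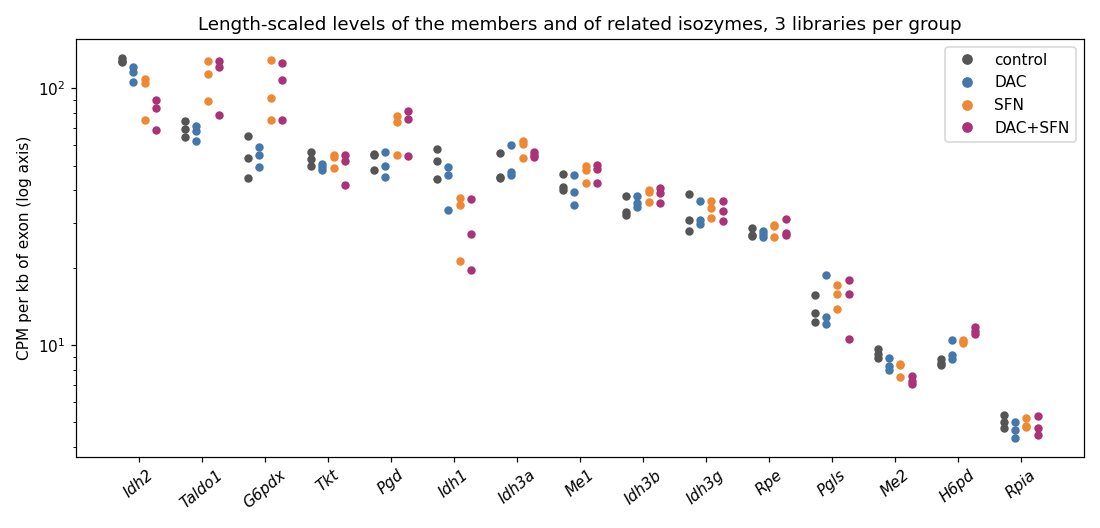
CPM per kb of annotated exon (vertical log axis) in each library for the 8 transcripts and for isozymes and related enzymes, 3 points per group. Taldo1 and G6pdx move to about the level of Idh2 with SFN, Idh1 moves from 51.3 to 31.2, and Rpia stays near 5.

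Isozymes of the members gave a comparison within enzyme families. Idh2, the mitochondrial NADP+-dependent isocitrate dehydrogenase, stood at 128 ± 2.56 CPM per kb in control and was lower with SFN (log2 fold change -0.43, adjusted p 0.00220) and with SFN on top of DAC (-0.50, adjusted p 0.000949), as Idh1 was. Of the 3 subunits of the NAD+-dependent enzyme, Idh3a was higher with SFN (0.28, adjusted p 0.0129) and was not called with SFN on top of DAC (0.12, adjusted p 0.237). Idh3b (0.16, adjusted p 0.0593) and Idh3g (0.07, adjusted p 0.512) were not called in either.

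Me2, the mitochondrial malic enzyme, had an estimate opposite in sign to that of Me1 (-0.19, adjusted p 0.0668, with SFN) and was not called. Me1 per kb was 4.59 ± 0.182 times Me2 in control and 5.81 ± 0.789 times with SFN, or 2.49 ± 0.0990 and 3.15 ± 0.428 times with the longest transcript as the length. Me3, the NADP+-dependent mitochondrial form, was low, at 0.166 ± 0.0205 CPM per kb in control (-0.08, adjusted p 0.825). H6pd, which carries out the first steps of the oxidative branch inside the endoplasmic reticulum, was higher with SFN (0.27, adjusted p 0.0170) and with SFN on top of DAC (0.26, adjusted p 0.0180). Rpe, the epimerase that works beside Rpia, was not called (0.05, adjusted p 0.696). The testis-expressed copy G6pd2 had at most 3 counts and the transketolase-like Tktl1 at most 1 in any library, and Tktl2 had none, where a count of 0 allows up to 3 counts per library.

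The counts of other genes around the pathway are to be read beside the 13.9% of all genes called with SFN and the 16.1% called with SFN on top of DAC. Of 13 further pentose phosphate genes listed, 12 were in the files and 9 were tested, and 2 of these rose with SFN, H6pd and Prps2 (0.25, adjusted p 0.0319), a phosphoribosyl pyrophosphate synthetase. The same 2 were called with SFN on top of DAC, where Prps2 had 0.30 (adjusted p 0.0144). The extremes of this list with SFN were the ribokinase Rbks (0.30, adjusted p 0.356) and the sedoheptulokinase Shpk (-0.28, adjusted p 0.338). Its median was -0.01.

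Among 13 genes listed as other makers of NADPH or NADP+, whose cofactor use was not tested, none rose and 4 fell with SFN. Besides Idh2 these were the mitochondrial folate enzymes Mthfd2 (-0.39, adjusted p 0.000345) and Aldh1l2 (-0.52, adjusted p 0.00997) and the mitochondrial NAD kinase Nadk2 (-0.33, adjusted p 0.0148). With SFN on top of DAC 3 fell, Idh2, Mthfd2 (-0.48, adjusted p 9.62e-05) and Nadk2 (-0.29, adjusted p 0.0272). The extremes were Mthfd1 (0.20, adjusted p 0.0586) and Mthfd2l (-0.58, adjusted p 0.242), and the median was -0.08.

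In the supply of hexose phosphates and the branch to glycolysis, 1 of 13 tested genes rose with SFN, hexokinase 1 (Hk1, 0.49, adjusted p 0.0134), and none fell. With SFN on top of DAC, Hk1 (0.41, adjusted p 0.0304) and the glucose transporter Slc2a3 (0.27, adjusted p 0.0170) rose. The lowest estimate with SFN was that of Pfkfb1 (-0.51, adjusted p 0.288).

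Of 18 tested users of NADPH, 5 rose and 1 fell with SFN, and the same numbers were called with SFN on top of DAC. Those that rose were the quinone reductase Nqo1 (2.01, adjusted p 1.16e-06), the biliverdin reductase Blvrb (1.64, adjusted p 0.000151), thioredoxin reductase 1 (Txnrd1, 0.74, adjusted p 1.87e-05), glutathione reductase (Gsr, 0.47, adjusted p 0.000264) and catalase (Cat, 0.26, adjusted p 0.0116), which binds NADPH. The sterol reductase Dhcr7 fell (-0.35, adjusted p 0.00229), and the lowest estimate was that of Pycr1 (-0.55, adjusted p 0.0832), an enzyme of proline synthesis, which was not called. With SFN on top of DAC the same 6 were called, from 2.15 for Nqo1 to -0.30 for Dhcr7. The median of this list was 0.01 with SFN.

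Among 8 genes for the exchange of malate, citrate and isocitrate between cytosol and mitochondrion, Mdh2 (0.22, adjusted p 0.0272) rose with SFN, and the citrate carrier Slc25a1 (-0.44, adjusted p 0.000568) and ATP citrate lyase (Acly, -0.43, adjusted p 6.91e-05) fell. Slc25a1 (-0.42, adjusted p 0.00103) and Acly (-0.27, adjusted p 0.00265) also fell with SFN on top of DAC, where Mdh2 was not called (0.07, adjusted p 0.469).

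**Figure D5:**
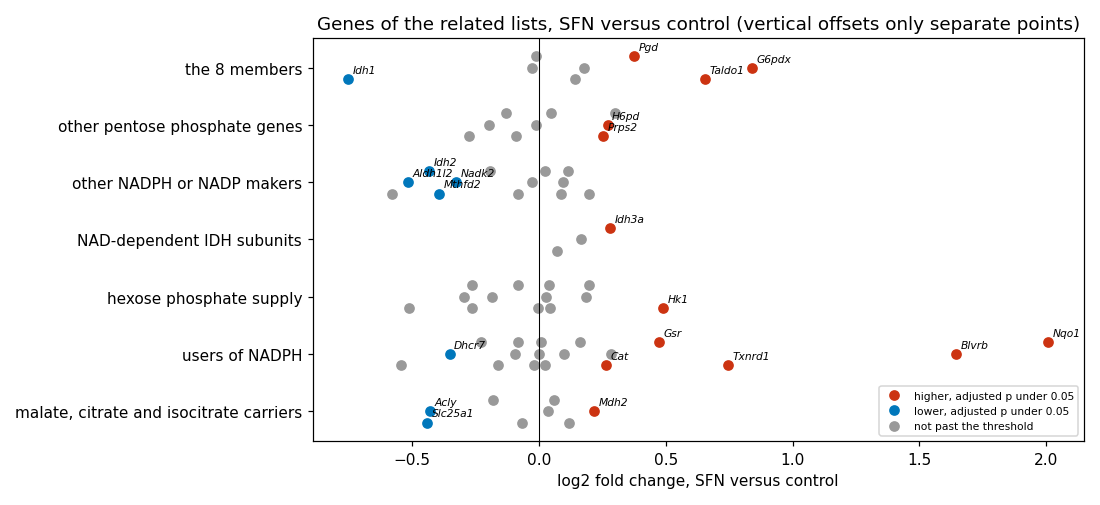
Log2 fold change of SFN against control (horizontal axis) for the 8 members and for 6 lists of related genes, 1 point per tested gene, coloured and named where the adjusted p was under 0.05. The called genes lie on both sides of 0 among the users of NADPH (5 higher, 1 lower), and below it among the other makers of NADPH or NADP+ (0 higher, 4 lower).

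Over the 12 libraries, after the mean of each replicate number was subtracted, some members followed a common pattern and others did not. The libraries share their treatment groups, so the correlations of log2 levels are given as descriptions. Pearson's r was highest between Pgd and Taldo1, at 0.986. It was 0.98 between G6pdx and Taldo1, 0.95 between G6pdx and Pgd and 0.86 between G6pdx and Me1. Between G6pdx and Idh1 it was -0.94. Between G6pdx and Tkt r was 0.05, and between G6pdx and Rpia 0.18. Tkt and Rpia had r = 0.74 with each other.

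Among all tested genes, the 3 most like G6pdx were Txnrd1 (r = 0.998), the alcohol dehydrogenase Adh7 (0.992) and sulfiredoxin 1 (Srxn1, 0.991). Those most like Taldo1 were the ferritin heavy chain Fth1 (0.987), Blvrb (0.979) and Bin3 (0.975), and for Pgd they were Blvrb (0.971), Nes (0.965) and Abhd12 (0.964). Taldo1 and Pgd were closer to each other (r = 0.986) than either was to Blvrb. Me1 was nearest to Fkbp14 (0.954), the peroxiredoxin Prdx1 (0.950) and S100b (0.935). The genes most like Idh1 were Plxnc1 (0.994), Acsl3 (0.993) and Ap1s2 (0.990). Likeness was lower for Tkt, whose nearest were Klc1 (0.935), Snrnp70 (0.934) and Fbxo31 (0.929), and for Rpia, whose nearest were Gm10845 (0.862), Mthfd1l (0.852) and Paqr7 (0.838). Pgls was nearest to B3gat3 (0.977), Lzts2 (0.974) and BC037034 (0.954).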

How the data were processed

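RNA from 12 samples of B16F10 cells was sequenced as 75-base single-end reads. Per the labels and the study's methods, the authors used Trimmomatic 0.38 for trimming and TopHat2 2.1.1 for alignment to mm10 and deposited raw counts of uniquely aligned reads per gene from HTSeq, whose version, annotation and strand setting are not given in the sources used here. Multimapped reads were discarded, which lowers counts of genes with near-identical copies. Groups and replicate numbers were taken from the sample titles.

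From these counts, genes reaching 1 CPM in 3 or more libraries were kept, scaled by TMM and tested with glmQLFTest in edgeR 4.0.16 (R 4.3.3) in 1 model of all 12 libraries with the replicate number as a block, at a Benjamini-Hochberg adjusted p under 0.05. The scripts were tested on simulated data. The study's methods correct for an unnamed batch. The block was supported by the deviations of same-numbered samples from their group means, which correlated in all 18 pairs (mean r 0.54, lowest 0.27). The 12 libraries were not copies, the chi-square between replicates being 12.6 to 34.3 per gene. SE was derived as the log2 fold change over the root of F. Differences within replicates used log2 CPM with a prior count of 2. Exon lengths came from GENCODE M21 and sequences from RefSeq (GRCm38.p6). Every member had at least 366 counts per library.

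The 8 members and the lists of related genes and markers were chosen with earlier results of these data known. All members were named, as were called list genes, isozymes, the extremes of each list and the 3 genes outside the 8 most like each member. Alternatives were DESeq2 1.42.0 and its size factors, other filters, no block, fewer samples and a fold threshold of 2. Some listed genes are not reported here.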

Additional observations from a re-analysis of the deposited data

How the results depend on the processing

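With no replicate block, 0 members were called in SFN against control, 0 in DAC+SFN against DAC and 3 in DAC+SFN against control, beside 23, 20 and 1201 genes in all. Requiring a fold change above 2 as well left 0 members in each of these 3 comparisons. With only the groups compared in the fit, 1 member (Idh1) was called in DAC against control. The DESeq2 test, its size factors and the 2 other filters kept each count of members within 1.5 times. Single libraries, or all 4 libraries of a replicate number (added after seeing the data), were also left out. In SFN against control this gave 3 to 5 called members, beside 434 to 2105 genes in all. In DAC+SFN against DAC it gave 1 to 6 members, beside 247 to 2402 genes. In DAC+SFN against SFN it gave 0 to 1 members, beside 0 to 700 genes. In DAC+SFN against control it gave 3 to 5 members, beside 1476 to 4205 genes. The lowest count of members in DAC+SFN against DAC came without replicate 1 (1 member, G6pdx, with adjusted p 0.0802 for Taldo1 and 0.0906 for Idh1). Without replicate 2, 3 members were called, and both fits had 8 libraries. These fits called 247 and 869 genes in all, against 1879 in the main fit. Over all alternatives apart from the fold threshold of 2, values of called members kept their call 245 times, lost it 28 times and never changed sign. Uncalled values changed sign 78 times and became called 6 times (Pgls and Idh1). Beyond the fewer libraries or genes in these fits, the cause was not tested.

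Of the changes of sign, DAC+SFN against DAC was -0.00506 for Pgls and -0.013 for Tkt with no filter and -0.000436 for Tkt with at least 10 counts in every library. DAC against control was -0.00139 for G6pdx with no replicate block, and DAC+SFN against SFN was -0.00625 for Me1 with no filter. The rest came from leaving out libraries. In SFN against control the range was -0.040 to 0.0070 for Tkt. In DAC+SFN against DAC the range was -0.23 to 0.43 for Pgls, -0.00078 to 0.089 for Rpia and -0.094 to 0.12 for Tkt. In DAC against control the range was -0.090 to 0.13 for G6pdx, -0.22 to 0.23 for Pgls, -0.19 to 0.076 for Pgd, -0.19 to 0.10 for Taldo1 and -0.14 to 0.0059 for Me1. In DAC+SFN against SFN the range was -0.019 to 0.16 for G6pdx, -0.24 to 0.18 for Pgls, -0.040 to 0.12 for Pgd, -0.063 to 0.012 for Rpia, -0.13 to 0.12 for Taldo1 and -0.051 to 0.057 for Me1. In DAC+SFN against control the range was -0.083 to 0.38 for Pgls. In the interaction the range was -0.061 to 0.15 for G6pdx, -0.32 to 0.13 for Pgls, -0.043 to 0.22 for Pgd, -0.058 to 0.13 for Tkt, -0.12 to 0.17 for Taldo1 and -0.068 to 0.24 for Idh1.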
